A study of Mus musculus with 16 samples.

Results

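Fibroblasts are the collagen-secreting cells of connective tissue, and in B16 melanomas they came through a preparation meant for immune cells. They were taken here as the barcodes with at least 10 unique molecular identifiers (UMIs, counted RNA molecules) of Col1a1, Col1a2, Col3a1 and Dcn together, none of Ptprc (CD45, the immune marker the cells were selected on), none of Cdh5 (an endothelial cadherin) and fewer than 30 of the pigment cell genes Mlana, Pmel, Dct and Tyrp1. Of 99357 barcodes that passed a minimum of 200 genes and a maximum of 10% mitochondrial UMIs, 502 met the rule, which is 0.505%. Their levels of these genes follow from the choice and are given only as a description.

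C57BL/6J mice carried subcutaneous Bro4.1 B16 tumours (a mouse melanoma line) made from B2m-null or control cells, and received either an anti-CD40 antibody or rat IgG2a isotype control, 100 mcg into the peritoneum on days 6, 9 and 12. Tumours were taken on day 14, digested for 10 minutes at 37 C, filtered at 70 micron and enriched for CD45 on magnetic columns, so all 4 groups share that selection. B2m is the light chain of MHC class I, and the sample labels name the genotype without saying whether tumour or mouse carried it. The series' design places it in the implanted cells, which is followed here, so the fibroblasts are host cells with B2m in every group. Mice were marked with hashtag antibodies and mixed, and each mixture ran on 1 lane of a 10x 3' v3 chip. No source used here gives the age or sex of the mice.

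There were 2 control isotype pools, 1 control CD40 pool (run on 2 lanes as technical replicates, which were summed), 2 B2m-null isotype pools and 2 B2m-null CD40 pools. The pool was the unit of replication, so that p-values measure the spread between pools. The 8 lanes held 116552 barcodes. No fibroblast barcode was shared between lanes, although 29 to 73 barcodes that passed were shared by each pair of lanes. Over the genes tested, the fibroblast sums ranged from 342904 to 1097613 UMIs per pool, the control CD40 pool being the deepest.

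Tumour fibroblasts build and remodel the collagen matrix, secrete chemokines that attract leukocytes, and present peptides on MHC class I as nearly all nucleated cells do. Interferon-gamma, released by activated T and NK cells, raises MHC class I genes, the immunoproteasome and the chemokines Cxcl9 and Cxcl10 in many cell types. CD40 is a TNF receptor family member best known on dendritic cells, macrophages and B cells. Pericytes, the contractile cells that wrap small vessels, also make collagen and share many genes with fibroblasts.

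Levels of the rule's own genes are fixed by the choice of both sets of barcodes and check nothing. Col1a1 (ENSMUSG00000001506) was found in 98.0% of fibroblast barcodes, Col3a1 (ENSMUSG00000026043) in 99.2% and Dcn (ENSMUSG00000019929), the small proteoglycan decorin, in 76.7%. In Ptprc-positive barcodes with at most 1 UMI of the 4 rule genes, which here stand for the immune cells of the same lanes (80564 barcodes), the same genes had a UMI in 1.00%, 1.62% and 0.448%. The label was checked on markers that the rule did not use. Pdgfra (ENSMUSG00000029231), a growth factor receptor of fibroblasts, was found in 59.0% of fibroblast barcodes and in 0.0285% of Ptprc-positive ones. Lum, a collagen-binding proteoglycan, was found in 55.4% against 0.114%. Fap was found in 37.5% against 0.251%, Thy1 in 84.3% against 27.7% and Pdpn in 51.8% against 11.9%, so that Fap was missing from most fibroblast barcodes and Thy1 and Pdpn were not rare in immune ones. Pdgfrb (65.7% against 0.0968%) and Col6a1 (85.3% against 0.134%) were higher still in the barcodes with pericyte genes described below, as was Thy1 (723 against 404 CPM, in 7 of 7 pools), and these 3 do not set fibroblasts apart from pericytes. Median depth was 6484 UMIs in fibroblast barcodes and 3429 in Ptprc-positive ones.

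Of the 502, 44 had 10 to 19 rule UMIs, and 37 further barcodes met the other conditions with 5 to 9. Those just inside had Pdgfra in 3 of 44 and at least 3 pericyte UMIs in 30 of 44, and those just outside had them in 0 of 37 and 25 of 37. The barcodes nearest the threshold on both sides therefore held pericyte genes more often than Pdgfra. A further 406 barcodes reached 10 rule UMIs but held Ptprc and were left out. They had a median of 12035 UMIs, hashtags of more than 1 mouse in 21.9%, and 4951 CPM (UMIs of a gene or list per 1000000 UMIs) of 11 macrophage markers, against 737 CPM in the 502. All 502 had at most 2 melanoma UMIs.

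Transcripts of other cells were present too. Lyz2, a macrophage lysozyme, had a UMI in 32.7% of fibroblast barcodes and 69.5% of Ptprc-positive ones, and the summed macrophage markers ranged from 353 to 887 CPM in isotype pools and from 654 to 1122 CPM in CD40 pools, against 12239 to 16782 CPM in Ptprc-positive barcodes. T and NK markers summed to 8.43 to 48.3 CPM under isotype and 19.6 to 93.3 CPM under CD40, with Ncr1 at 0. Endothelial markers summed to 98.1 to 314 CPM and 131 to 280 CPM, with Cdh5, Tie1 and Cldn5 at 0. The 5 keratinocyte markers summed to 26.6 to 166 CPM under isotype and 14.2 to 24.7 CPM under CD40, against 4.60 to 6.63 CPM in Ptprc-positive barcodes, with Krt5, Krt14 and Krt1 at 0. The highest value, in control isotype pool 2, came from Epcam, of which 1 barcode held 98.2% of the 55 UMIs. The 5 adipocyte markers summed to 379 to 1145 CPM under isotype and 231 to 609 CPM under CD40, nearly all from the lipase Lpl, against 372 to 954 CPM in Ptprc-positive barcodes, with Adipoq, Plin1 and Cidec at 0. Cd79a of B cells, Krt14 and Adipoq had no UMI in any of the 502, which allows up to 0.598% of barcodes with a UMI of each, and does not limit the cells that express it. The 0 for Ptprc and Cdh5 comes from the rule, and Mlana and Pmel each had a UMI in 10 of 502 barcodes.

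Some fibroblast barcodes also carried pericyte genes. Of the 8 pericyte and smooth muscle markers (Rgs5, Cspg4, Mcam, Notch3, Kcnj8, Abcc9, Myh11, Des), 175 barcodes, or 34.9%, held at least 3 UMIs, 107 of them at least 20, and 264 held none. Of these 175, 122 had no Pdgfra UMI, while 243 of the other 327 had one. A further 53 barcodes held both and 84 neither. Median depth was alike, at 6519 UMIs with pericyte genes and 6366 without. The 502 are therefore called fibroblasts by their rule, and the class with at least 3 pericyte UMIs is a range of counts, not a cell type.

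Genes outside the 8 markers followed the same division in all 7 pools. Acta2, the smooth muscle actin, averaged 2289 CPM in barcodes with pericyte UMIs and 212 CPM in the others. Col4a1, a basement membrane collagen, averaged 3254 against 742 CPM, and Pdgfrb, a growth factor receptor of pericytes and fibroblasts, 671 against 191 CPM. In the other direction, Dcn averaged 717 against 4002 CPM, Lum 155 against 821 CPM, and Pdgfra 100.3 against 339 CPM. The chemokine Cxcl12 averaged 156 against 1226 CPM, the complement component C3 418 against 1800 CPM, the acute-phase protein Saa3 401 against 3617 CPM, and Dpt, a matrix protein of reservoir fibroblasts, 86.0 against 694 CPM. B2m was alike in both kinds, at 3587 and 3565 CPM. Because the classes were drawn from the same barcodes, these values are descriptions.

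**Figure D1:**
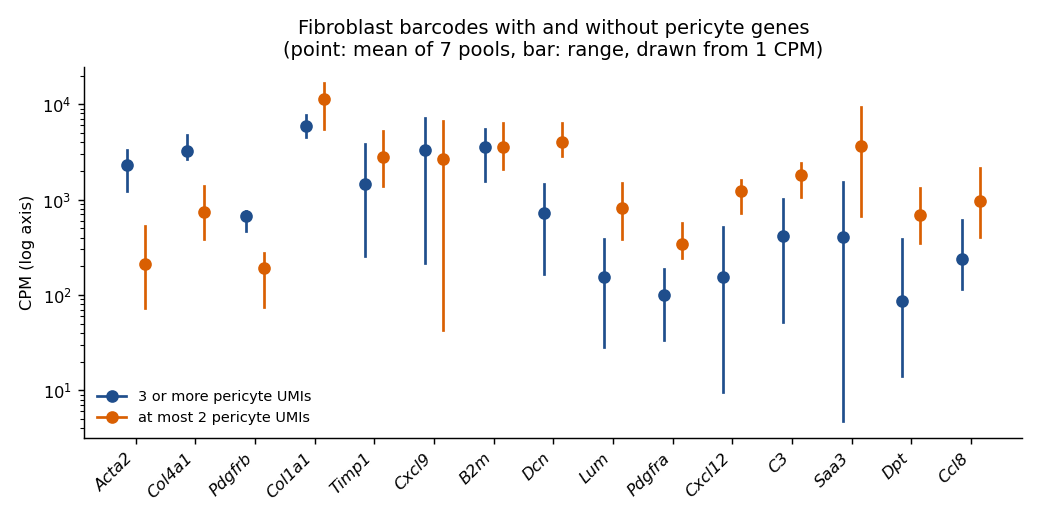
Levels of 15 genes in fibroblast barcodes with at least 3 UMIs of 8 pericyte markers (blue) and with at most 2 (orange), as CPM on a log axis, where points are the mean of 7 pools and bars the range. Acta2, Col4a1 and Pdgfrb sit higher in blue, Dcn, Lum, Cxcl12, C3 and Saa3 higher in orange, and B2m is level at 3587 and 3565 CPM.

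The share with at least 3 pericyte UMIs varied between pools. It was 39.0% and 36.6% in the control isotype pools, 39.1% in control CD40, 30.6% and 54.8% in the B2m-null isotype pools, and 17.4% and 45.2% in the B2m-null CD40 pools. Thinned to 2000 UMIs per barcode, at least 1 pericyte UMI was found in 43.8%, 41.7%, 40.2%, 37.6%, 55.2%, 19.8% and 48.4% of barcodes in the same order. B2m-null CD40 pool 1 was the lowest by both measures, and the groups overlapped.

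Fibroblast barcodes were rare in every lane. They made up 0.492% (95% exact binomial interval 0.388 to 0.614) and 0.385% (0.276 to 0.522) of barcodes that passed in the 2 control isotype lanes, and 0.505% (0.390 to 0.643) and 0.536% (0.420 to 0.673) in the 2 control CD40 lanes. In B2m-null isotype lanes they made up 0.807% (0.656 to 0.983) and 0.263% (0.179 to 0.373), and in B2m-null CD40 lanes 0.803% (0.643 to 0.991) and 0.260% (0.177 to 0.369). These intervals cover counting error only. Within each B2m-null group the intervals of the 2 lanes did not overlap.

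**Figure D2:**
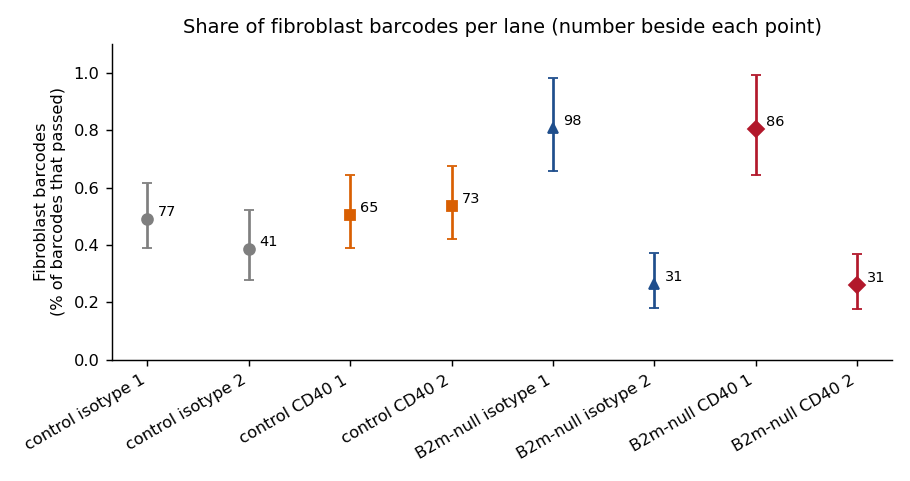
Fibroblast barcodes as a percentage of the barcodes that passed, by lane, with 95% exact binomial intervals and the number of fibroblast barcodes beside each point. The 2 B2m-null isotype lanes lie at 0.807% and 0.263% and the 2 B2m-null CD40 lanes at 0.803% and 0.260%, while the 4 control lanes lie between 0.385% and 0.536%.

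The mean share was 0.528% over 3 CD40 pools and 0.487% over 4 isotype pools, a difference of 0.0413 percentage points (two-sided exact permutation test, p = 0.771). It was 0.533% over 4 B2m-null and 0.466% over 3 control pools (exact permutation p = 0.657). The smallest two-sided p that 35 arrangements of 7 pools allow is 0.0286. The direction of the CD40 difference turned without B2m-null CD40 pool 1 (-0.0963 points) or B2m-null isotype pool 2 (-0.0333 points), and that of the genotype difference without B2m-null CD40 pool 1 (-0.0225 points) or B2m-null isotype pool 1 (-0.0238 points). A column selection for CD45 sets how many fibroblasts remain, so these shares do not measure fibroblasts in the tumour. Over 16 mice told apart by hashtag the CD40 difference was 0.241 points (exact permutation p = 0.303, 6 against 10 mice). Hashtags named no mouse for 36.3% of fibroblast barcodes, against 18.0% of all that passed, and 90 of the 98 in B2m-null isotype pool 1 had no mouse.

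Under anti-CD40, 10 of 18 MHC class I genes rose in fibroblast barcodes, along with Ccl5, Ereg, Nos2, Hmga2, Inhbb and Timp1, while Edn1 and Col14a1 fell. Postn and the pericyte marker Rgs5 fell too, but their calls were lost in several fits without 1 pool. Most of the 10 class I calls were also lost in at least 1 such fit, as given below. Without members of over 2 immune UMIs, 5 of 18 class I genes were called. Averaged over the 2 tumour genotypes, 54 of 7710 genes tested passed an adjusted p of 0.05 (edgeR quasi-likelihood test, Benjamini-Hochberg), which is 0.7%. Of these, 39 were higher under CD40 (0.506%) and 15 lower (0.195%). The median log2 change of all genes was -0.02. All 3 CD40 pools lay above all 4 isotype pools in 3.28% of genes and below them in 8.51%. Of the 54 calls, 21 held without each of 6 pools in turn, and every one kept its direction. The 54 were chosen on these same pools, so a kept direction was largely set by the choice. Leaving out control isotype pool 2 left 27 of the 54, in 35 calls in all, and leaving out B2m-null CD40 pool 2 gave 85 calls. Without members of over 2 immune UMIs there were 38 calls, with 35 of the 54 among them. The median mitochondrial share of UMIs in fibroblast barcodes was 3.86%, 4.45%, 4.52% and 4.96% in the isotype lanes and 3.19%, 3.23%, 3.44% and 3.88% in the CD40 lanes. Its part in the changes was not tested.

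Of 18 MHC class I genes tested, 10 rose and none fell, all 18 had a positive change, and the median log2 change was 1.15. Over all genes tested 0.506% rose. Here and below, genes of a list can move together, so a shared direction is a description only. B2m (ENSMUSG00000060802) stood at 3688, 2633, 2302 and 1785 CPM in the isotype pools (2 control, then 2 B2m-null) and at 6048, 4312 and 4268 CPM in the CD40 pools (1 control, then 2 B2m-null), an order kept below. All CD40 pools lay above all isotype pools, and the log2 change was 1.09 (SE 0.19, adjusted p = 0.0247).

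The heavy chain H2-K1 (ENSMUSG00000061232) stood at 3075, 1956, 1645 and 1068 CPM under isotype and at 4902, 4032 and 4520 CPM under CD40. Its log2 change was 1.40 (SE 0.22, adjusted p = 0.0133). H2-D1 (ENSMUSG00000073411) stood at 1891, 1324, 946 and 719 CPM and rose to 3091, 2284 and 3584 CPM, a log2 change of 1.47 (SE 0.22, adjusted p = 0.012). The groups did not overlap for either chain, and B2m-null isotype pool 2 was the lowest pool for both.

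H2-Q6 and H2-Q7 rose by log2 2.22 (SE 0.34) and 1.59 (SE 0.31), and the non-classical H2-T22 and H2-T23 by 1.19 (SE 0.22) and 1.16 (SE 0.23). H2-Q6, H2-Q7 and the other H2 heavy chains are near-identical in sequence, so reads could be split between them and single values are uncertain. H2-Q6 had 2.87 without B2m-null isotype pool 1. The immunoproteasome subunits Psmb8 and Psmb9, which cut peptides for loading, rose by 1.33 (SE 0.24) and 1.39 (SE 0.26), and the proteasome activator Psme1 by 1.24 (SE 0.23). These 3 averaged 485, 362 and 408 CPM in Ptprc-positive barcodes, against isotype ranges of 86.5 to 368, 56.1 to 299 and 81.8 to 234 CPM in fibroblasts. The peptide transporter Tap1 had 1.01 (SE 0.25, adjusted p = 0.11) and the loading factor Tapbp 0.92 (SE 0.22, adjusted p = 0.0878), which did not pass.

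**Figure D3:**
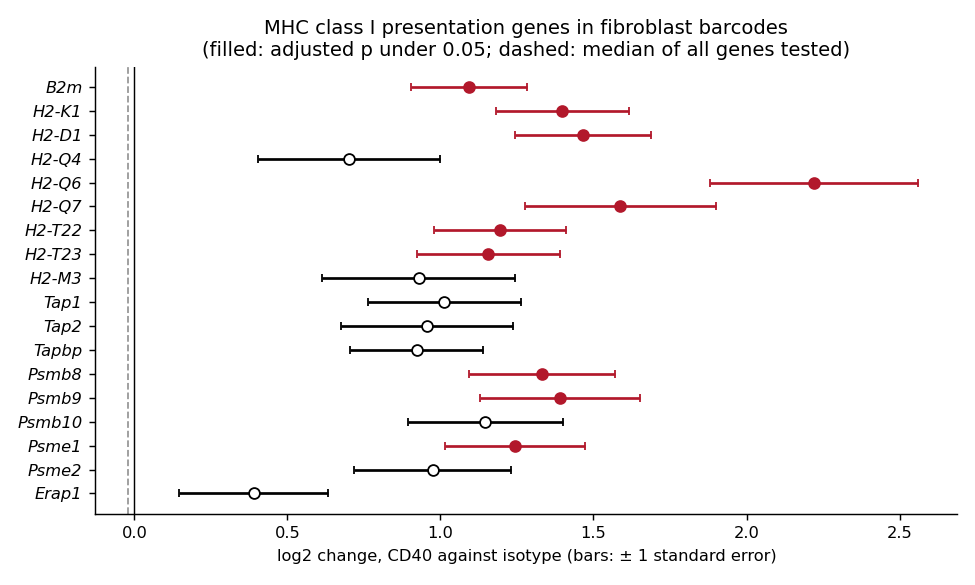
Log2 change of 18 MHC class I presentation genes in fibroblast barcodes, CD40 against isotype, with bars of 1 standard error, where filled points passed an adjusted p of 0.05. All 18 points lie to the right of 0, the 10 filled ones between 1.09 (B2m) and 2.22 (H2-Q6), and the dashed line marks the median of all genes at -0.02.

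The number of class I genes that rose varied with the pools: 3 without control isotype pool 2, 5 without B2m-null CD40 pool 1, 6 without B2m-null isotype pool 1, and 9 or 10 without each other pool that could be left out. H2-K1, H2-D1 and H2-Q6 were called without each of the 6. H2-T23 was called in 1 of these 6 fits, H2-Q7, Psmb9 and Psme1 in 3, and H2-T22 and Psmb8 in 4, each with its highest adjusted p without control isotype pool 2 (0.0883 to 0.146). B2m lost its call without control isotype pool 2 (adjusted p = 0.0883). Leaving out members with over 2 immune UMIs left 5 of 18, at a median log2 change of 1.17. Among barcodes with at most 2 pericyte UMIs the median was 1.18, and among those with 3 or more it was 1.13. The Ptprc-positive barcodes also carried more of these genes under CD40: B2m ranged from 2627 to 3387 CPM in their isotype pools and from 3965 to 4489 CPM in their CD40 pools.

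The promoters of genes that rose together are shown because they hold letters bound by interferon-responsive and NF-kB factors in other genes. Of the 10 class I genes that rose, all were in the RefSeq promoter table, and 8 held at least 1 of 3 motifs in the 250 bases before the start, searched on both strands. Of all 32851 promoters in the table, 13.3% did. The ISRE-type motif (GAAA, any 2 bases, GAAA) was in 3 of 10 (2.98% of all promoters), the kB-type motif (GGG, any 2 bases, TT, any 1 base, CC) in 5 of 10 (4.11%) and the GAS-type motif TTCNNNGAA in 1 of 10 (7.02%). The 3 motifs can overlap, the H2 promoters share ancestry and so are not independent, and a match is a description of the letters only. The sequences below run 5′ to 3′ along each gene, with matches in capitals, from RefSeq on GRCm38.p6. They are B2m at chr2:122147437-122147686 on the plus strand, H2-K1 at chr17:34000348-34000597 on the minus strand, H2-T22 at chr17:36042743-36042992 on the minus strand and Gbp2, an interferon-induced GTPase, at chr3:142620413-142620662 on the plus strand.
B2m: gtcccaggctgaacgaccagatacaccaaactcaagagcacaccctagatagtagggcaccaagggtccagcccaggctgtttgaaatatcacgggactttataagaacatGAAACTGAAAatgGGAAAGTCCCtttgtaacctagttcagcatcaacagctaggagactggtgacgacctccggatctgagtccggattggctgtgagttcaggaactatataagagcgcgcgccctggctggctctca
H2-K1: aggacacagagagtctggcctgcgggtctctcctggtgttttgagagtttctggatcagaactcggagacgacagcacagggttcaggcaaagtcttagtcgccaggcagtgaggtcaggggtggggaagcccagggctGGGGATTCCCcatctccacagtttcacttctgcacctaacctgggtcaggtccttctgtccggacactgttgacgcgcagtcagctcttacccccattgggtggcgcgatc
H2-T22: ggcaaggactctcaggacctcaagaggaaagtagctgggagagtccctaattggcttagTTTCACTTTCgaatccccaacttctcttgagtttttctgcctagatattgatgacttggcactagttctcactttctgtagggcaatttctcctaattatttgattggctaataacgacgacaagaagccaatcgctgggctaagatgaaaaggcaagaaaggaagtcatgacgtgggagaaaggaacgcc
Gbp2: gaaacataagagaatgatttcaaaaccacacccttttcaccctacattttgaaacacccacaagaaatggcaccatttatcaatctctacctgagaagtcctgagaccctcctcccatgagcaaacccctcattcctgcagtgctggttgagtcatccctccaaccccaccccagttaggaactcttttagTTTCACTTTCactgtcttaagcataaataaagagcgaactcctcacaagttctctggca

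In B2m an ISRE-type match (GAAACTGAAA, from -139 to -130 counted from the start) is followed by a kB-type match on the other strand (GGAAAGTCCC, from -126 to -117). H2-K1 holds a kB-type match (GGGGATTCCC, from -111 to -102). H2-T22 and Gbp2 hold the ISRE-type motif on the other strand (TTTCACTTTC, from -191 to -182 and from -59 to -50).

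Of the 23 interferon-gamma-stimulated genes tested, 3 rose and none fell, and all 23 had a positive change, with a median log2 change of 1.25. Over all genes tested 0.506% rose. Cxcl9, a chemokine that attracts CXCR3-bearing T cells, stood at 3566, 1537, 84.1 and 573 CPM under isotype and at 6848, 3840 and 3320 CPM under CD40. Control isotype pool 1 lay above B2m-null CD40 pool 2, so the groups overlapped, and the log2 change was 2.53 (SE 0.47, adjusted p = 0.0357), or 3.53 without B2m-null isotype pool 2. Gbp2 rose by 1.69 (SE 0.29, adjusted p = 0.023) and the GTPase Igtp by 2.21 (SE 0.44, adjusted p = 0.0478).

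The other members shared the direction but not the precision. Cxcl10 stood at 1044, 67.4, 9.35 and 79.9 CPM under isotype and at 1209, 842 and 222 CPM under CD40 (log2 2.46, SE 0.76, adjusted p = 0.202). Cd274, which encodes PD-L1, had a log2 change of 2.18 (SE 0.62, adjusted p = 0.169). Without control isotype pool 2 the count of genes that rose was 0, and without control isotype pool 1 it was 10. Cxcl9 and Gbp2 lost their call without control isotype pool 2 (adjusted p = 0.0822 and 0.0682). Igtp lost it without control isotype pool 2, either B2m-null isotype pool or B2m-null CD40 pool 1, with adjusted p up to 0.133. None of the 20 type I interferon-stimulated genes tested passed, at a median log2 change of 0.26.

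Ccl5 (ENSMUSG00000035042), a chemokine for T cells and monocytes, had the largest rise that met the rule for named genes. It stood at 48.3, 59.0, 2.34 and 5.33 CPM under isotype and at 535, 184 and 227 CPM under CD40 (log2 4.60, SE 0.29, adjusted p = 1.93e-05). The groups did not overlap, which that rule required. A UMI was found in 79 of 255 CD40 barcodes and 14 of 247 isotype barcodes. Ptprc-positive barcodes of the same lanes held more of it, 240 to 631 CPM under isotype and 859 to 3956 CPM under CD40. The part of free immune RNA in the fibroblast value was not tested.

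Ereg, an EGF receptor ligand, stood at 5.57, 2.81, 7.01 and 0 CPM under isotype and at 47.6, 81.8 and 67.3 CPM under CD40 (log2 3.89, SE 0.46, adjusted p = 0.00464). The change was 3.48 to 5.95 without each of 6 pools, highest without B2m-null isotype pool 1. Its level in Ptprc-positive barcodes was at most 0.585 CPM. Nos2 (ENSMUSG00000020826), the inducible nitric oxide synthase, stood at 11.1, 0, 39.7 and 18.6 CPM and rose to 207, 206 and 58.9 CPM (log2 3.66, SE 0.52, adjusted p = 0.00838). Gch1, which makes the cofactor of nitric oxide synthases, rose by 2.10 (SE 0.38, adjusted p = 0.0308), from 2.66 to 30.9 CPM under isotype to 42.1 to 77.1 CPM under CD40, against 34.6 to 59.4 CPM in Ptprc-positive barcodes. Nos2 kept its call without each of 6 pools, at 6.10 without control isotype pool 1 and 3.03 without B2m-null CD40 pool 1. Gch1 had 2.69 without B2m-null isotype pool 1 and lost its call without control isotype pool 2, B2m-null isotype pool 2 or B2m-null CD40 pool 1 (adjusted p up to 0.0946).

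Hmga2 (ENSMUSG00000056758), a chromatin protein of growing mesenchymal cells, stood at 16.7, 14.1, 4.67 and 18.6 CPM under isotype and at 140, 81.8 and 39.3 CPM under CD40. Its log2 change was 2.90 (SE 0.38, adjusted p = 0.00774), or 3.54 without B2m-null isotype pool 2. Inhbb (ENSMUSG00000037035), the beta B subunit of activin and inhibin, stood at 7.43, 16.9, 2.34 and 5.33 CPM and rose to 57.2, 34.6 and 44.9 CPM (log2 2.89, SE 0.42, adjusted p = 0.00862). Both were near absent from Ptprc-positive barcodes, at 4.09 CPM or less for Hmga2 and 1.12 CPM or less for Inhbb. AW112010, a transcript induced by interferon, rose by 2.5 (SE 0.29, adjusted p = 0.00464), and was higher in Ptprc-positive barcodes (525 to 3376 CPM) than in fibroblasts (29.3 to 679 CPM).

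**Figure D4:**
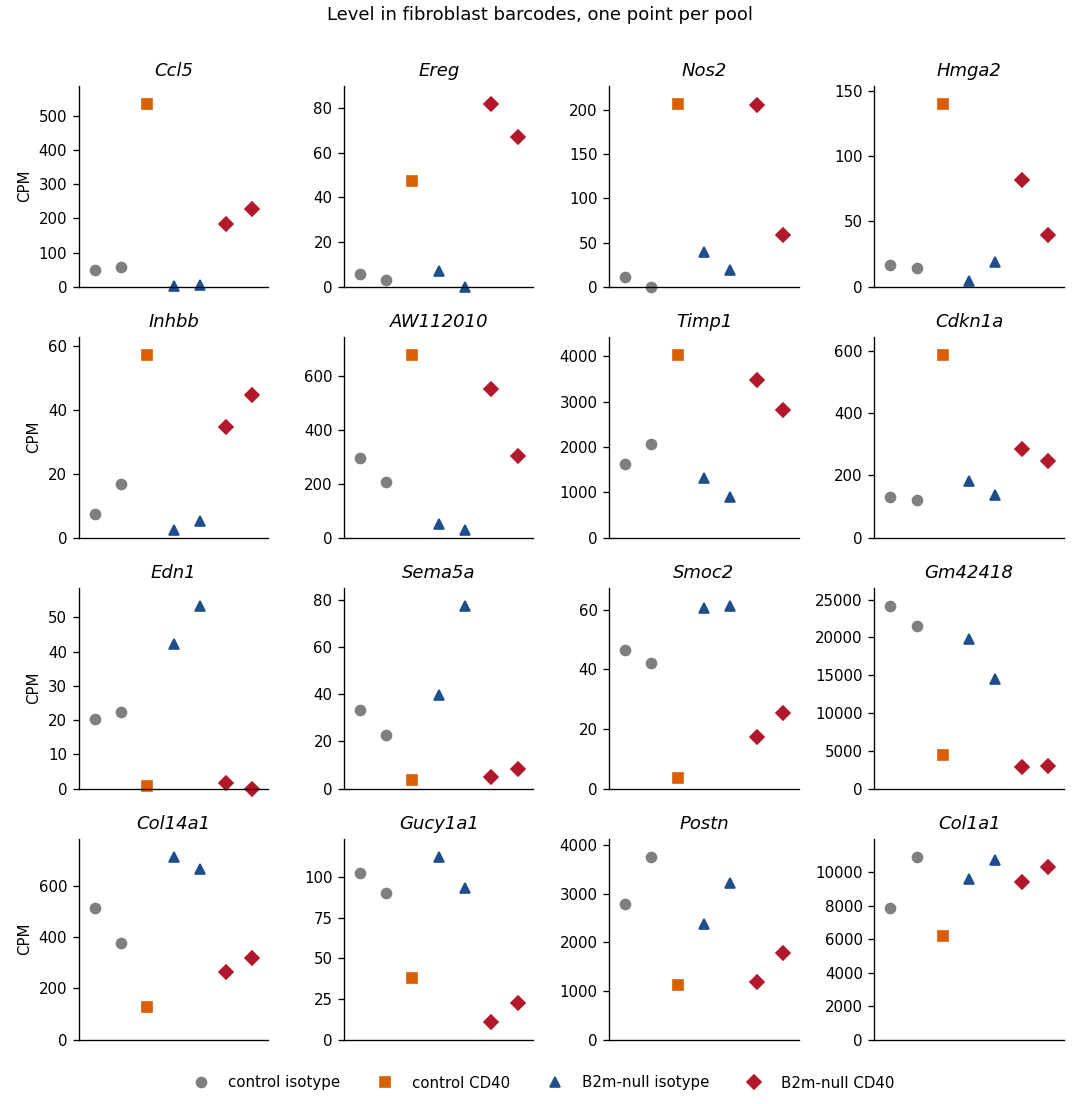
Level of 16 genes in fibroblast barcodes, in CPM on linear axes from 0, with 1 point per pool. In the upper 8 panels (Ccl5 to Cdkn1a) the 3 CD40 pools lie above the 4 isotype pools, in Edn1 to Postn they lie below, and in Col1a1 the groups overlap between 6210 and 10907 CPM. For most of these genes non-overlap was a condition of their choice, so it is not a result.

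Among secreted factors of inflamed fibroblasts, 1 of 22 tested rose (0.506% over all genes) and none fell, at a median log2 change of 0.66. That gene was Ccl8 (ENSMUSG00000009185), a monocyte-attracting chemokine, at 394, 483, 344 and 519 CPM under isotype and 1401, 1158 and 592 CPM under CD40 (log2 1.44, SE 0.27, adjusted p = 0.0343). It lost its call without either control isotype pool, B2m-null isotype pool 1 or B2m-null CD40 pool 1 (adjusted p up to 0.0747). Ptprc-positive barcodes held 1856 to 1963 CPM of Ccl8 under isotype and 1253 to 2806 CPM under CD40. The related Ccl2 stood at 2613, 464, 533 and 951 CPM under isotype and 3978, 3662 and 4868 CPM under CD40, without overlap, but did not pass (log2 2.03, SE 0.44, adjusted p = 0.0594). Il6 (log2 -0.07, SE 0.48) and Cxcl12 (0.65, SE 0.35) did not pass either.

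Of 8 complement genes tested, 2 rose (0.506% over all genes) and all 8 had a positive change, at a median of 0.82. Serping1, the inhibitor of C1, stood at 1361, 939, 949 and 479 CPM under isotype and at 2144, 1859 and 2493 CPM under CD40 (log2 1.34, SE 0.26, adjusted p = 0.0383). C2 rose by 1.30 (SE 0.26, adjusted p = 0.0496). Serping1 lost its call without control isotype pool 2 or B2m-null CD40 pool 2 (adjusted p up to 0.108), and C2 without control isotype pool 2, B2m-null isotype pool 2 or either B2m-null CD40 pool (up to 0.14). C3 stood at 1194, 1116, 1484 and 522 CPM under isotype and 1339, 1978 and 1553 CPM under CD40 and did not pass (adjusted p = 0.435).

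None of 7 fibrillar collagens passed, at a median log2 change of -0.40. Col1a1 stood at 7885, 10907, 9574 and 10740 CPM under isotype and at 6210, 9412 and 10305 CPM under CD40 (log2 -0.23, SE 0.17, adjusted p = 0.618). Col1a2 had -0.40 (SE 0.17), Col3a1 -0.41 (SE 0.19) and Dcn 0.09 (SE 0.28). The rule sums these 4 genes, so their levels in the chosen barcodes are partly set by it. None of 14 collagen processing enzymes passed, at a median of 0.03. Pdgfra had -0.12 (SE 0.30, adjusted p = 0.912), and none of 14 fibroblast identity genes tested passed.

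Single matrix genes did move. Timp1 (ENSMUSG00000001131), an inhibitor of matrix metalloproteinases, stood at 1632, 2063, 1318 and 906 CPM under isotype and at 4026, 3478 and 2818 CPM under CD40, without overlap. Its log2 change was 1.40 (SE 0.20, adjusted p = 0.00862), and it was called in all 20 alternatives. It was the only 1 of 14 matrix protease and inhibitor genes tested that passed, with Mmp14 at -0.98 (SE 0.26, adjusted p = 0.129). Col14a1 (ENSMUSG00000022371), a collagen that binds fibril surfaces, stood at 514, 377, 713 and 666 CPM and fell to 128, 264 and 317 CPM (log2 -1.44, SE 0.23, adjusted p = 0.0144). It held without each of 6 pools and lost its call among barcodes with at least 3 pericyte UMIs (log2 -0.89, adjusted p = 0.25). Postn, the matricellular protein periostin, stood at 2795, 3760, 2391 and 3223 CPM and fell to 1120, 1195 and 1775 CPM (log2 -1.15, SE 0.23, adjusted p = 0.0458). It lost its call without control isotype pool 2, B2m-null isotype pool 2 or B2m-null CD40 pool 1 (adjusted p up to 0.14).

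None of 12 contractile myofibroblast genes tested passed, at a median log2 change of -0.39. Acta2 stood at 1625, 669, 346 and 1891 CPM under isotype and at 778, 408 and 1326 CPM under CD40, and the groups overlapped. Cthrc1, a marker of matrix-producing tumour fibroblasts, had -1.16 (SE 0.36, adjusted p = 0.204). None of 16 TGF-beta family genes tested passed, at a median of -0.18, none of 20 cell cycle genes, at -0.34, and none of 11 genes of Pi16- or Col15a1-marked reservoir fibroblasts, at -0.41. Nor did any of 19 growth factors and binding proteins (median -0.06), 16 hypoxia and glycolysis genes (0.40) or 20 immediate-early and heat-shock genes (-0.14) pass.

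The largest fall was in Edn1 (ENSMUSG00000021367), the vasoconstrictor endothelin-1. It stood at 20.4, 22.5, 42.1 and 53.3 CPM under isotype and at 0.881, 1.57 and 0 CPM under CD40 (log2 -4.70, SE 0.68, adjusted p = 0.00862). A UMI was found in 25 of 247 isotype and 2 of 255 CD40 barcodes, so few cells carry the value, 1 of them with 18.6% of all its UMIs. It kept its call without each of 6 pools, at -5.93 without B2m-null CD40 pool 1, and lost it among barcodes with at least 3 pericyte UMIs (log2 -4.39, adjusted p = 0.523). Sema5a, a membrane semaphorin, stood at 33.4, 22.5, 39.7 and 77.2 CPM and fell to 3.52, 4.72 and 8.41 CPM (log2 -2.98, SE 0.48, adjusted p = 0.0154). It lost its call without B2m-null isotype pool 2 (adjusted p = 0.0509). The imprinted gene Peg3 fell by 2.51 on the log2 scale (SE 0.47), the calcium-binding matrix protein Smoc2 by 2.48 (SE 0.34) and the hyaluronan-degrading protein Cemip by 1.99 (SE 0.35). Peg3 lost its call without control isotype pool 2, B2m-null isotype pool 1 or B2m-null CD40 pool 1 (adjusted p up to 0.0716), with a change of -1.85 without B2m-null isotype pool 1, and Cemip without either control isotype pool or B2m-null isotype pool 1 (up to 0.0664). Smoc2 held without each of 6 pools and lost its call among barcodes with at least 3 pericyte UMIs (log2 -1.01, adjusted p = 0.74).

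Several genes that fell belong to pericytes. Of the 8 pericyte markers 2 fell (0.195% over all genes) and all 8 had a negative change, at a median log2 change of -0.99. Rgs5, a G protein regulator that marks pericytes, stood at 2147, 1574, 1996 and 2411 CPM under isotype and at 1245, 683 and 505 CPM under CD40 (log2 -1.14, SE 0.22, adjusted p = 0.0404). Abcc9, a potassium channel subunit, fell by 1.70 (SE 0.25, adjusted p = 0.00862), and Gucy1a1, the nitric oxide receptor subunit, by 1.94 (SE 0.27, adjusted p = 0.00838). Rgs5 lost its call without either control isotype pool, B2m-null isotype pool 2 or B2m-null CD40 pool 2 (adjusted p up to 0.108). The 8 markers summed to 3085, 2293, 2928 and 3889 CPM under isotype and to 1956, 998 and 1068 CPM under CD40. Such sums do not separate fewer barcodes with pericyte genes from less RNA per barcode, and the part of each was not tested. The share of such barcodes overlapped between the groups, as given above. Of the 54 calls, 32 held among barcodes with at most 2 pericyte UMIs and 30 among those with at least 3, with 52 and 46 of them tested. All 52 kept their direction in the first kind and 45 of 46 in the second. Both kinds are parts of the barcodes on which the calls were made, so a kept direction was likely from the outset.

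Gm42418 (ENSMUSG00000098178) and AY036118, transcripts that commonly collect ribosomal RNA reads, were lower in every CD40 pool than in any isotype pool. Gm42418 stood at 24135, 21473, 19713 and 14554 CPM under isotype and at 4411, 2817 and 2967 CPM under CD40 (log2 -2.38, SE 0.19, adjusted p = 9.65e-05). In Ptprc-positive barcodes it ranged from 5456 to 6845 CPM under isotype and from 1648 to 2467 CPM under CD40, so the same order held there. With both transcripts left out, 52 of the other 52 calls held.

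Cd40 itself was sparse in fibroblasts. It stood at 35.3, 25.3, 0 and 7.99 CPM under isotype and at 7.93, 11 and 14.0 CPM under CD40, with a UMI in 35 of 502 barcodes (log2 -0.05, SE 1.11, adjusted p = 0.996). Cd40 averaged 27.6 CPM (0 to 72.0 over pools) in fibroblast barcodes with at least 3 pericyte UMIs and 7.91 CPM (0 to 24.3) in the others. It was higher in the former in 6 pools and lower in 0. Ptprc-positive barcodes held 33.6 to 73.9 CPM. None of 13 tested genes of CD40, TNF and NF-kB signalling passed, at a median log2 change of 0.35.

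Within control tumours, 4 genes passed (0.0519% of genes tested): Ccl5, Cdkn1a and Ltc4s rose and Gm42418 fell. Cdkn1a (ENSMUSG00000023067), the cell cycle inhibitor p21, stood at 132 and 121 CPM under isotype and 587 CPM under CD40 (log2 2.25, adjusted p = 0.0285). Ltc4s, leukotriene C4 synthase, stood at 11.1 and 11.2 CPM against 180 CPM (log2 4.01, adjusted p = 0.01). There was 1 CD40 pool here, assumed to vary like the others. The count was 16 without control isotype pool 1 and 8 without either B2m-null CD40 pool. By hashtag-assigned mice 3 genes passed, with Ccl5 at log2 2.55 (adjusted p = 0.371). Only the 6 of 16 mice with at least 20 fibroblast barcodes entered that fit, and no B2m-null isotype mouse was among them. The control mice in it held 20 and 22 such barcodes under isotype and 61 and 55 under CD40. With the 2 lanes counted as 2 samples, 13 genes passed, and with members of over 2 immune UMIs left out, 0 did, with Ccl5 at log2 2.93 (adjusted p = 0.17).

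Within B2m-null tumours, 41 genes passed (0.532%), 29 of them higher under CD40 (0.376%) and 12 lower. The count was 25 without B2m-null CD40 pool 1 and 23 without members of over 2 immune UMIs. Of 18 class I genes 8 rose, at a median log2 change of 1.60, against 0.77 in control tumours. Ccl5 rose by 5.83 (adjusted p = 0.000304), Ereg by 4.40, Il18bp, a secreted blocker of interleukin-18, by 4.23 (adjusted p = 0.0403; 27.7 to 124 CPM in Ptprc-positive barcodes, 0 to 61.4 CPM in fibroblasts), Cxcl9 by 3.60 and AW112010 by 3.54 (adjusted p = 0.00347). The Ccl5 change was 5.36 without B2m-null isotype pool 1 and 6.50 without B2m-null isotype pool 2. Edn1 fell by 5.15, the fatty acid transporter Cd36 by 3.29 (adjusted p = 0.0189), Sema5a by 3.05, Abcc9 by 2.86 and Gucy1a1 by 2.57. Cd36 was higher in Ptprc-positive barcodes (144 to 429 CPM) than in fibroblasts (5.61 to 77.2 CPM). The MHC class II genes H2-Aa, H2-Eb1 and Cd74 also rose here, by 2.05, 2.10 and 2.24. These are genes of antigen-presenting immune cells: Cd74 stood at 81.8 and 165 CPM under isotype and 434 and 625.3 CPM under CD40, against 2882 to 4621 CPM in Ptprc-positive barcodes, and the summed macrophage markers stood at 353 and 887 CPM against 911 and 1122 CPM. Their part in the class II values was not tested.

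Only Spp1 was shown to respond differently in the 2 tumour genotypes (0.013% of genes tested). Spp1 (ENSMUSG00000029304), the secreted phosphoprotein osteopontin, stood at 2258 and 2181 CPM in control isotype pools and 976 CPM in the control CD40 pool, but at 491 and 226 CPM in B2m-null isotype pools and 4124 and 3222 CPM in B2m-null CD40 pools. The change was log2 -1.15 in control (adjusted p = 0.586) and 3.50 in B2m-null tumours (adjusted p = 0.00111), and the difference of the effects was 4.65 (adjusted p = 0.0233). Without B2m-null isotype pool 1 the B2m-null change was 4.18 and the difference 5.32. The change in B2m-null tumours was 2.55 (adjusted p = 0.0697) among barcodes with at most 2 pericyte UMIs and 6.43 (adjusted p = 1.16e-08) among those with at least 3. In the latter class Spp1 ranged from 0 to 8638 CPM over the pools. The B2m-null pools held only 30 and 17 such barcodes under isotype and 15 and 14 under CD40, so the size of these changes is uncertain. A UMI was found in 174 of 502 barcodes, and Ptprc-positive barcodes held 346 to 1685 CPM. With the rule raised to 20 UMIs the difference was 4.78 (adjusted p = 0.222), and among barcodes with at most 2 pericyte UMIs it was 3.62 (adjusted p = 0.523). Among those with at least 3 the difference was 7.48 (adjusted p = 1.15e-05).

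**Figure D5:**
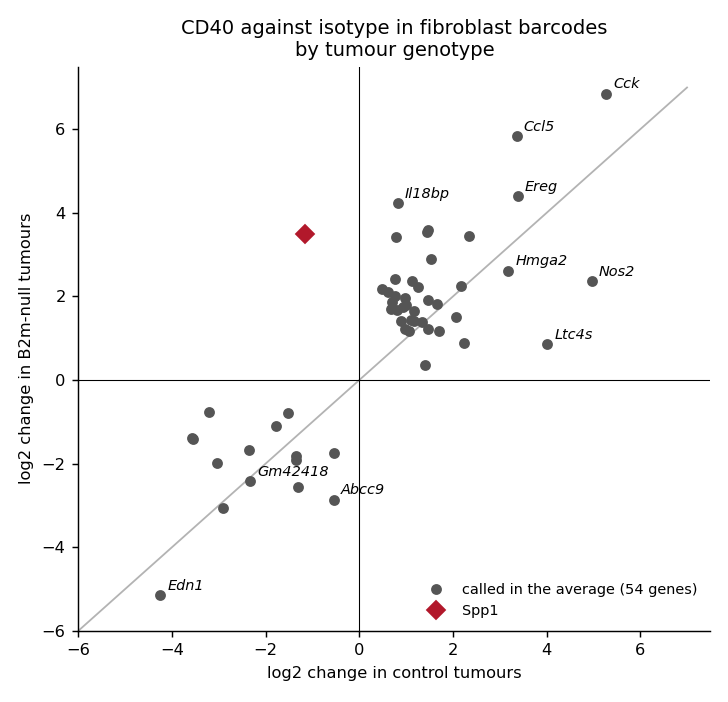
Log2 change under CD40 in control tumours (horizontal) and in B2m-null tumours (vertical) for the 54 genes called in the average and for Spp1, with the line of equal change. The 54 lie in the upper right and lower left by their selection, and Spp1 lies apart at -1.15 and 3.50.

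Between genotypes under isotype, 1 gene passed (0.013%): Spp1 was lower in B2m-null tumours by log2 -2.66 (adjusted p = 0.0413). It lost the call without control isotype pool 2 (adjusted p = 0.0571) or without the control CD40 pool (0.0744), and also with the rule at 20 UMIs (0.133), without hashtag doublets (0.0702) and without members of over 2 immune UMIs (0.128). Its log2 change in these 5 fits, -2.69, -2.64, -2.85, -2.63 and -2.59 in the same order, was close to that over all pools and members. It was -3.31 without B2m-null isotype pool 1. Among barcodes with at most 2 pericyte UMIs it was -1.93 (adjusted p = 0.547), and among those with at least 3 it was -4.94 (adjusted p = 2.44e-06). The latter class held few B2m-null barcodes, as given above. The class I genes had a median of -1.04 and the interferon-gamma list -1.54, without a call. Ccl5 had -3.78 (adjusted p = 0.0606), or -3.28 without B2m-null isotype pool 1 and -4.42 without B2m-null isotype pool 2. Its adjusted p was 0.0424 with the control CD40 lanes as 2 samples and 0.133 with the rule at 20 UMIs. This comparison shares its isotype pools with the CD40 comparisons above. Under CD40, none passed (0%) in edgeR, with 348 at an unadjusted p under 0.05, and DESeq2 called 1.

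The CD40 change in fibroblasts was then set against that in Ptprc-positive barcodes of the same pools. It differed in 138 of 14542 genes (0.949%, edgeR, pool as a block), 94 with a more positive change in fibroblasts and 44 with a more negative one. This fit did not average over tumour genotypes and held no term for genotype by cell set. The CD40 pools were 1 control and 2 B2m-null, the isotype pools 2 and 2, so genotype differences between cell sets could enter. The count was 78 without B2m-null isotype pool 2, 227 without B2m-null CD40 pool 1 and 245 without B2m-null CD40 pool 2. The Ptprc-positive barcodes are a mixture of immune cells, and the part of its makeup in these differences was not tested. The fit also assumed 1 spread per gene for both cell sets. Fibroblast sums came from 31 to 138 barcodes per pool and Ptprc-positive sums from at least 8266 per lane. If fibroblast sums vary more, the p-values of this fit are too small, which was not tested. Timp1 was 2.09 higher on the log2 scale (SE 0.33, adjusted p = 0.000652), Hmga2 3.21 (SE 0.46, adjusted p = 0.000273), Inhbb 4.73 (SE 0.77, adjusted p = 0.000898) and Cdkn1a 1.58 (SE 0.26, adjusted p = 0.00128). Hmga2 and Inhbb were near absent from Ptprc-positive barcodes, so the size of their differences is uncertain. Edn1 was lower, at -5.54 (SE 0.84, adjusted p = 0.000404), and so was Col14a1, at -1.55 (SE 0.32, adjusted p = 0.0128).

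Among chemokines, Ccl2, chosen after its value was seen, had a difference of 3.10 (adjusted p = 4.45e-06) and Ccl8 one of 1.20 (adjusted p = 0.0247). Ccl2 in Ptprc-positive barcodes stood at 1877 to 3040 CPM under isotype and 763 to 1869 CPM under CD40, the opposite order to that in fibroblasts. Among class I genes, H2-D1 differed, by 0.91 (SE 0.20, adjusted p = 0.0194), while H2-K1 (0.73, adjusted p = 0.0664) and B2m (0.46, SE 0.19, adjusted p = 0.403) were not shown to differ. Ccl5 (1.13, SE 0.41, adjusted p = 0.287), Nos2 (0.36, SE 0.61, adjusted p = 0.938) and Cxcl9 (1.42, SE 0.42, adjusted p = 0.128) were not shown to differ from the immune barcodes either.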

How the data were processed

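Deposited values were UMI counts per gene and barcode, made by the authors with Cell Ranger 3.0.0 and bcl2fastq 2.20.0.422 on mm10, per the submitters' processing notes. Hashtag counts came in the same deposited matrices as the gene counts. They were used only to assign barcodes to mice and to mark doublets. Assignment used a Gaussian mixture (scikit-learn 1.9.0, posterior of at least 0.9, at least 20 hashtag UMIs), a doublet having 2 hashtags above background. No other doublet caller was run, and no clustering. Barcodes under 200 genes or over 10% mitochondrial UMIs were dropped, and the rule given in the report was applied to raw UMIs. Members and gene lists were chosen with earlier results of these data known.

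Raw UMIs of the members were summed per pool and fitted over all 4 groups with edgeR 4.0.16 in R 4.3.3 (TMM scaling, low-count filter, quasi-likelihood test, Benjamini-Hochberg adjustment over 7710 genes, call at adjusted p under 0.05, 3 residual degrees of freedom, common biological coefficient of variation 0.237). The single control CD40 pool was assumed to vary like the others. CPM are relative to all member UMIs of a pool. Ptprc-positive barcodes were summed alike and compared in a fit with pool as a block and 1 spread per gene over both cell sets. On simulated data for the average comparison (7191 genes), 37% of genes changed by log2 1 and 99% of those changed by log2 2 were recovered, and 0.0286% of unchanged genes were called.

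Genes named in full are the 8 largest rises and 8 largest falls among called genes with a mean of at least 20 CPM in the higher group and no overlap between CD40 and isotype pools, up to 3 called genes per list, up to 5 each way in the genotype comparisons, and the genes of the rule, Pdgfra and Cd40. Other genes (Ccl2, Cxcl10, Cd274, Tap1, Tapbp, Psmb8, Psmb9, Psme1, H2-T22, H2-T23, Il6, Cxcl12, C3, Mmp14, Cthrc1, Acta2 and the MHC class II genes) were chosen after their values were seen. Symbols carried by 2 gene IDs were left out. Alternatives were DESeq2 1.42.0, RLE scaling, no low-count filter, leaving out each pool, hashtag-assigned mice or the control CD40 lanes as samples, other rule thresholds, and leaving out doublets or members with over 2 immune UMIs. The gene fit by mice used only mice with at least 20 members.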

Additional observations from a re-analysis of the deposited data

Results flagged for a closer look

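One mouse of B2m-null CD40 pool 1, told apart by hashtag, stood far from the other 3 hashtag mice of its group: 1.66% of its barcodes were fibroblasts (38 of 2296), against 0.172% to 0.356%. A mouse of B2m-null isotype pool 1 stood apart at 1.03%, but on 2 of 195 barcodes, against 0% to 0.260% in its group. Chance flags about 1 in 20 groups.

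Spp1 responded to CD40 differently in the 2 tumour genotypes, by 4.65 on the log2 scale (edgeR adjusted p = 0.0233).

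For 11 named genes the CD40 change differed between fibroblasts and Ptprc-positive barcodes (edgeR interaction, log2 scale). It was more positive in fibroblasts for Inhbb (4.73), Hmga2 (3.21), Ltc4s (2.34), Timp1 (2.09), Gch1 (1.60), Cdkn1a (1.58), Ccl8 (1.20) and H2-D1 (0.91). It was more negative for Edn1 (-5.54), Col14a1 (-1.55) and Gm42418 (-0.85). Inhbb and Hmga2 were near absent from Ptprc-positive barcodes, so the size of their differences is uncertain.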

How the results depend on the processing

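The 54 genes called in the average CD40 comparison kept their direction under every alternative that tested them, except 1 of 46 among members with at least 3 pericyte UMIs. Each alternative reused these data in whole or part, so a kept direction was largely set by the choice of genes. The count of calls was 329 with no low-count filter, 35 to 85 without 1 pool, 126 with the control CD40 lanes as 2 samples, 38 without members of over 2 immune UMIs (35 of the 54 still called), 139 (121 higher) in members with at least 3 pericyte UMIs, 55 (34 higher) in those with at most 2, and 114 in members thinned to 2000 UMIs, the last 3 chosen after seeing the data. In control tumours 4 calls became 10 in DESeq2, 136 unfiltered, 4 to 16 without 1 pool, 13 with lanes as samples and 0 without members of over 2 immune UMIs. In B2m-null tumours 41 became 275 unfiltered, 25 to 50 without 1 pool and 23 without such members. Between genotypes under isotype, 1 became 2 in DESeq2, 94 unfiltered, 0 to 10 without 1 pool, 2 with lanes as samples, and 0 at 20 rule UMIs, without doublets and without members of over 2 immune UMIs. Under CD40, 0 became 1 in DESeq2, 39 unfiltered, 0 to 1 without 1 pool and 1 by hashtag-assigned mice. The difference of effects went from 1 to 46 unfiltered, 1 to 2 without 1 pool, 0 at 20 rule UMIs and 2 without doublets. Against Ptprc-positive barcodes, 138 became 78 to 245 without 1 pool.

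Class I calls were 3 to 10 without 1 pool and 5 without members of over 2 immune UMIs. Interferon-gamma calls were 18 unfiltered, 0 to 10 without 1 pool, 8 with lanes as samples, 1 without members of over 2 immune UMIs, 1 and 5 in members with at most 2 and at least 3 pericyte UMIs, and 9 thinned. The share difference for CD40 ran from -0.0963 to 0.175 points without 1 pool, turning at -0.0963 and -0.0333, and that for genotype from -0.0238 to 0.159, turning at -0.0225 and -0.0238 and at -0.0539 by mice. The causes were not tested, apart from the number of genes or samples that an alternative itself changes. The tests above did not pair pools by replicate number. Deviations from group means correlated (r) at 0.0055 and -0.038 between same-numbered control isotype and B2m-null pools. Between the 2 B2m-null groups r was 0.148. Fibroblast shares there were alike by number, at 0.807% and 0.803% in pools 1 and 0.263% and 0.260% in pools 2. Without the control CD40 pool, a replicate block gave 66 calls in B2m-null tumours, against 33 without the block. Between genotypes under isotype it gave 3, against 0. Whether same-numbered pools were handled together was not tested. Pools held 31 to 138 members, and in the simulation most changes of log2 1 were missed. Recovery by level of expression, or with the spread of the real pools, was not tested.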
